A study of Rattus norvegicus with 8 samples.

Results

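The splicing factor and hnRNP genes are described here in the thoracic aorta of rats given nitroglycerin or its vehicle. Members were chosen by symbol: every gene whose name begins with Srsf and a digit, Hnrnp, Sf3a, Sf3b, Snrp, or Prpf and a digit, with at least 1 annotated Ensembl transcript, represented by its row of highest mean. That gave 63 genes of the 19144 symbols with an annotated row, namely 11 Srsf, 19 Hnrnp, 9 Sf3, 12 Snrp and 12 Prpf genes. Male wild type Sprague Dawley rats, labelled as aged 12 weeks, received either ethanol vehicle (control, 4 libraries) or nitroglycerin at 100 mg/kg under the skin (nitroglycerin, 4 libraries), each 3 times a day for 3 days. Their weight is given as 180 to 200 g. The series title calls the treated aorta nitroglycerin tolerant, and the comparison asks which genes differ in it. Total RNA was depleted of ribosomal RNA, and the extraction text mentions adipose although the tissue is labelled aorta. Whether every library is a separate animal is not stated, so p-values measure only the spread between these libraries, which may be technical. The values are FPKM (fragments per kilobase of transcript, scaled to the mapped fragments of the library), a level per length that is relative within a library.

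Splicing removes introns from newly made RNA. The spliceosome that does this is built from small nuclear ribonucleoproteins (snRNPs). Each holds an RNA of the U class and its own proteins, and most hold a ring of Sm proteins. The Snrp genes encode the Sm proteins and some of the other snRNP proteins. The SF3 complexes belong to the U2 snRNP and hold it on the branch point of the intron. PRP factors (Prpf genes) include proteins of the U4/U6 and tri-snRNP particles and of the complex around Prpf19 that activates the spliceosome. SR proteins (Srsf genes), which end in stretches rich in arginine and serine, bind exons and mostly favour their inclusion, while heterogeneous nuclear ribonucleoproteins (hnRNPs) coat nuclear RNA and often oppose it. Several SR and hnRNP genes limit their own messenger RNA by splicing it into forms that are degraded. In smooth muscle, alternative exons distinguish contractile from less differentiated cells.

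The controls held 7.48 to 8.86 Gb of aligned sequence each and the nitroglycerin libraries 6.77 to 8.39 Gb. Most genes read higher with nitroglycerin: over the 12977 rows tested the median log2 difference was 0.30, and 86.6% of rows were above 0. The 100 rows of highest mean took 51.7 to 71.4% of the summed FPKM in controls and 47.4 to 50.4% with nitroglycerin. Differences are therefore given on both scales, as deposited and after each library was divided by a median-of-ratios factor (0.742 to 0.996 in controls, 1.07 to 1.22 with nitroglycerin), which left a median of 0.01. Such factors centre the rows tested near 0 by design. Rescaled differences are therefore relative to the typical row and cannot show whether most genes changed together. Control replicate 1 had the lowest factor. Marker genes of the cell types of the aorta were summed as deposited. The 7 smooth muscle markers with a row summed to 2033 to 2708 FPKM in controls and 1267 to 2658 with nitroglycerin, 9 endothelial markers to 31.9 to 55.4 and 55.4 to 72.4, 8 macrophage markers to 32.2 to 44.3 and 53.1 to 76.3, 6 fibroblast markers to 1728 to 2500.4 and 1428 to 1557, and 9 adipocyte markers to 10.9 to 33.8 and 16.6 to 149.7 FPKM. The adipocyte sum was high in nitroglycerin replicate 1 alone (149.7 FPKM), and the other 3 nitroglycerin libraries, at 16.6 to 24.4 FPKM, lay within the control range. Most of the smooth muscle sum was Acta2 (mean 2075 FPKM in controls, 1602 with nitroglycerin), and most of the fibroblast sum was Col1a1 (1779 and 1151 FPKM). The median log2 differences of the tested markers were -0.23 as deposited and -0.62 rescaled for smooth muscle, 0.54 and 0.29 for endothelium, 0.59 and 0.24 for macrophages, 0.31 and -0.06 for fibroblasts, and 0.87 and 0.53 for adipocytes. Of the smooth muscle markers, 3 of 7 were above 0 as deposited and 1 after rescaling. Of the fibroblast markers, 4 of 6 were above 0 as deposited and 3 after rescaling. Over all genes, 1 endothelial (Esam) and 1 macrophage marker (Cd163) rose and 1 skeletal muscle marker (Ckm) fell as deposited by limma, Ckm also after rescaling, and no marker with a row was at 0 in every library. Their part in the results below was not tested. In this bulk tissue, fewer cells of a type and less RNA per cell cannot be told apart.

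Of the 63 genes, 59 reached 1 FPKM in 4 libraries or more, which was the condition for testing. The 4 others were low throughout: Srsf12, an SR-related gene, reached at most 0.166 FPKM, the Sm protein gene Snrpg at most 0.530 FPKM, and Snrpd2l and Snrpep2 at most 0.0716 and 0.0330 FPKM. Mean levels over the 8 libraries ran from 1.86 FPKM for Snrpa to 37.1 FPKM for Srsf5, with a median of 4.91 FPKM against 3.08 FPKM for all rows tested. The order of the highest means was Srsf5, Srsf2 (22.3), Hnrnpa2b1 (21.8), Hnrnpk (19.0) and Hnrnpl (17.3 FPKM). Within each library Srsf5 lay above the other 4 of these, and across libraries its lowest value (24.9 FPKM) lay below the highest of Srsf2 (27.2 FPKM) and Hnrnpa2b1 (25.6 FPKM). The other 4 overlapped one another across libraries. Summed over the 63 genes, the level was 314 to 428 FPKM in controls and 453 to 513 FPKM with nitroglycerin.

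**Figure D1:**
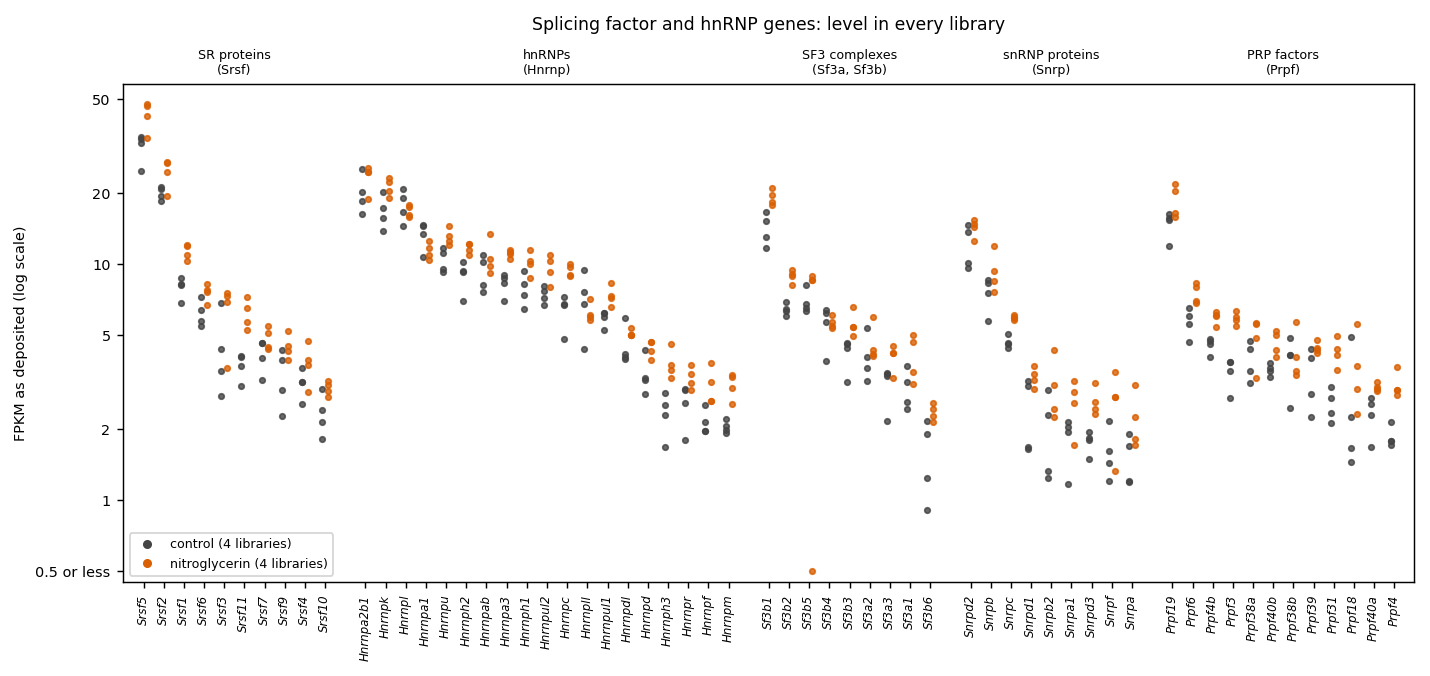
FPKM as deposited (log axis) of the 59 tested genes in each of 4 control (grey) and 4 nitroglycerin (orange) libraries, by family and in order of mean level. Most orange points sit higher than the grey ones of the same gene, Hnrnpa1, Hnrnpl and Hnrnpll being among those that do not, and the Sf3b5 point drawn at 0.5 is listed at 0.

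With nitroglycerin, 1 of the 59 tested genes rose as deposited, the U4/U6 factor Prpf3, and none fell (limma over all rows, Benjamini-Hochberg adjusted p under 0.05). Over all rows, 1.29% rose and 0.0616% fell. After rescaling none of the 59 passed in either direction (limma), where 0.0308% of all rows rose and 0.10% fell. At an unadjusted p under 0.05, 4 were then higher and 4 lower, against 5.50% and 6.44% of all rows. A difference above 0 was then found for 31 of 59, against 52.4% of all rows. On the deposited scale it was found for 55 of 59, against 86.6% of all rows. These shares of all rows also stand beside the counts above 0 given below for each family and list. As deposited, 28 of the 59 were higher and 0 lower at an unadjusted p under 0.05, against 34.1% and 1.02% of all rows. The family counts at that threshold below stand beside 34.1 and 1.02% as deposited and 5.50 and 6.44% after rescaling. The 4 nitroglycerin libraries lay wholly above the 4 controls for 22 of the 59, where the same held for 24.2% of all rows, and wholly below for 0, against 0.478% of all rows. After rescaling those counts were 3 and 3, against 3.78% and 4.45% of all rows. The median log2 difference of the 59 was 0.33, with an interquartile range from 0.26 to 0.41, against 0.30 and 0.14 to 0.44 for all rows. After rescaling the median was 0.01, the same to 2 decimals as that of all rows. The rescaled differences of all rows varied with level. Among the 3244 rows of highest level, 99 lay wholly above controls and 308 wholly below, with a median of -0.045. Among the 3245 rows of lowest level these counts were 131 and 60, with a median of 0.041. The 29 of the 59 genes with the higher means held 1 gene wholly above and 3 wholly below. The other 30 held 2 and 0. Whether level accounts for the 3 genes wholly below was not tested.

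Many of the 59 genes had their extremes in the same libraries. As deposited, 41 of the 59 genes had their lowest value of the 8 libraries in control replicate 1, and 28 their highest in nitroglycerin replicate 3. After rescaling, control replicate 1 held the lowest value of 10 genes. Among controls the median coefficient of variation of the 59 was 16.3% as deposited and 11.2% after rescaling, and among nitroglycerin libraries 11.8% and 10.96%. For all rows tested these values were 22.6 and 18.9% in controls and 19.1 and 18.2% with nitroglycerin. The tested SR genes had a mean log2(FPKM + 1) of 2.61 to 2.98 in controls and 3.16 to 3.20 with nitroglycerin, and after rescaling 2.93 to 3.01 and 2.92 to 3.08. The hnRNP genes had means of 2.73 to 3.13 and 3.16 to 3.28 as deposited, and of 3.07 to 3.14 and 2.98 to 3.09 after rescaling. In both families the groups of libraries did not overlap as deposited and overlapped after rescaling.

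**Figure D2:**
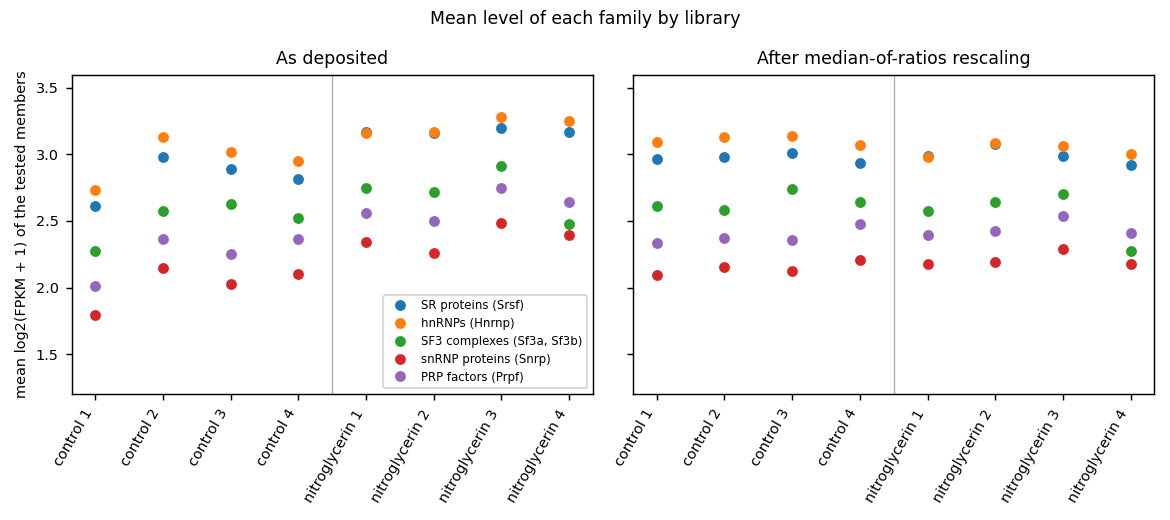
Mean log2(FPKM + 1) of the tested genes of each family (colours) in each library, as deposited (left) and after median-of-ratios rescaling (right). Control replicate 1 is the lowest library of every family on the left, and on the right the control and nitroglycerin libraries of a family overlap.

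The 10 tested SR genes all had a log2 difference above 0 as deposited (median 0.31), and 5 of 10 after rescaling (median 0.02). None passed under either scaling (limma; 3 higher and 0 lower at an unadjusted p under 0.05 as deposited, 1 and 0 after rescaling). Srsf11, an SR-related protein that contacts the U2AF factor, read 3.06, 4.09, 3.70 and 4.03 FPKM in the controls and 6.51, 5.69, 5.28 and 7.30 FPKM in the nitroglycerin libraries, and every nitroglycerin library lay above every control. For Srsf11 the log2 difference as deposited came to 0.61 (limma adjusted p = 0.0558, SE 0.13), against 0.29 (limma adjusted p = 0.286, SE 0.09) when rescaled. Srsf1, the founding SR protein and a regulator of splice site choice, read 6.85, 8.29, 8.14 and 8.76 FPKM in the controls and 10.3, 11.9, 12.1 and 10.9 FPKM in the nitroglycerin libraries, also without overlap. Srsf1 had a deposited log2 difference of 0.45 (limma adjusted p = 0.0615, SE 0.12) and a rescaled one of 0.10 (limma adjusted p = 0.715, SE 0.09). Srsf5, the SR gene of highest level, read 24.9, 34.6, 32.5 and 33.8 FPKM in the controls and 34.3, 42.4, 47.7 and 46.6 FPKM in the nitroglycerin libraries. Its lowest nitroglycerin value lay below the highest control, and its log2 differences were 0.43 (limma adjusted p = 0.105, SE 0.16) as deposited and 0.05 (limma adjusted p = 0.898, SE 0.12) after rescaling. Srsf2, which recognises exonic enhancers, stood at 20.05 ± 1.25 and 24.5 ± 3.602 FPKM in controls and nitroglycerin libraries (mean ± SD, n = 4 per group, as throughout), a difference of 0.27 (limma adjusted p = 0.194, SE 0.14), and -0.10 (limma adjusted p = 0.823, SE 0.14) after rescaling. Srsf7, which is related to Srsf3 and also serves RNA export, had the lowest difference of the family, 0.20 (limma adjusted p = 0.281, SE 0.13) as deposited and -0.11 (limma adjusted p = 0.704, SE 0.10) after rescaling, at 4.12 ± 0.671 and 4.85 ± 0.530 FPKM. Srsf3, the smallest SR protein, varied most between libraries of a group, at 2.77, 6.82, 4.37 and 3.54 FPKM in the controls and 7.30, 6.89, 7.52 and 3.64 FPKM in the nitroglycerin libraries, so that nitroglycerin replicate 4 lay among the controls.

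Of the 19 hnRNP genes, 16 had a log2 difference above 0 as deposited (median 0.30) and 6 after rescaling (median -0.02). None passed (limma; 12 higher and 0 lower at an unadjusted p under 0.05 as deposited, 1 and 3 after rescaling). Hnrnpm, which promotes or represses exons next to its binding sites, read 1.99, 2.05, 1.93 and 2.21 FPKM in the controls and 3.00, 2.57, 3.40 and 3.34 FPKM in the nitroglycerin libraries. On the log2 scale Hnrnpm differed by 0.42 (limma adjusted p = 0.0615, SE 0.11), and by 0.14 (limma adjusted p = 0.586, SE 0.09) once rescaled. Hnrnpc, which binds uridine tracts and keeps cryptic exons out, read 4.81, 7.26, 6.76 and 6.70 FPKM in the controls and 9.03, 8.92, 10.00 and 9.72 FPKM in the nitroglycerin libraries. For Hnrnpc the log2 difference as deposited came to 0.51 (limma adjusted p = 0.0638, SE 0.13), against 0.17 (limma adjusted p = 0.435, SE 0.07) when rescaled. Hnrnph3, a member of the group that binds guanine runs, had the highest difference of the family, at 1.68, 2.53, 2.84 and 2.31 FPKM in the controls and 3.74, 3.29, 3.56 and 4.57 FPKM in the nitroglycerin libraries. In all 3 genes the groups did not overlap as deposited. Hnrnph3 had a deposited log2 difference of 0.53 (limma adjusted p = 0.0639, SE 0.14) and a rescaled one of 0.24 (limma adjusted p = 0.387, SE 0.10). The 2 hnRNP genes of highest level lay nearer the median row. Hnrnpa2b1, which also sorts RNA within the cell, stood at 20.1 ± 3.83 and 23.4 ± 3.11 FPKM, a difference of 0.22 (limma adjusted p = 0.353, SE 0.17) as deposited and -0.15 (limma adjusted p = 0.666, SE 0.12) after rescaling. Hnrnpk, which binds cytosine-rich RNA, stood at 16.8 ± 2.72 and 21.2 ± 1.85 FPKM, and its difference was 0.33 (limma adjusted p = 0.138, SE 0.14) as deposited and -0.04 (limma adjusted p = 0.907, SE 0.09) after rescaling.

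Hnrnpa1, an exon silencer that binds UAG-type elements, had the lowest log2 difference of the family under both scalings. Its level is uncertain where reads are shared with the processed copies described at the end. It read 10.8, 14.5, 14.7 and 13.4 FPKM in the controls and 11.7, 10.4, 12.5 and 10.9 FPKM in the nitroglycerin libraries. The groups overlapped as deposited through control replicate 1, and the difference was -0.20 (limma adjusted p = 0.279, SE 0.13). After rescaling it read 14.5, 14.6, 16.1 and 14.8 FPKM in the controls and 10.1, 9.75, 10.6 and 8.997 FPKM in the nitroglycerin libraries, with every nitroglycerin library below every control and a difference of -0.56 (limma adjusted p = 0.0552, SE 0.08), at an unadjusted p of 0.000102. It missed the threshold over all rows, and it passed as lower after rescaling in 3 alternatives that changed which rows were tested (adjusted p = 0.0349 to 0.0486). With any 1 library left out its rescaled difference stayed between -0.59 and -0.52, with adjusted p-values of 0.0779 to 0.143. 2 other hnRNP genes, named after their values were seen, also had a difference below 0 as deposited. Hnrnpl, which binds CA repeats, read 14.6, 20.9, 19.2 and 16.6 FPKM in the controls and 15.9, 17.5, 17.9 and 16.2 FPKM in the nitroglycerin libraries. On the log2 scale Hnrnpl differed by -0.06 (limma adjusted p = 0.751, SE 0.14), and by -0.43 (limma adjusted p = 0.148, SE 0.09) once rescaled. Its relative Hnrnpll, known for exon choice in T cells, stood at 7.08 ± 2.12 and 6.24 ± 0.586 FPKM, with a difference of -0.12 (limma adjusted p = 0.661, SE 0.19) as deposited and -0.45 (limma adjusted p = 0.260, SE 0.14) after rescaling. After rescaling the 2 groups did not overlap for Hnrnpl and overlapped for Hnrnpll.

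**Figure D3:**
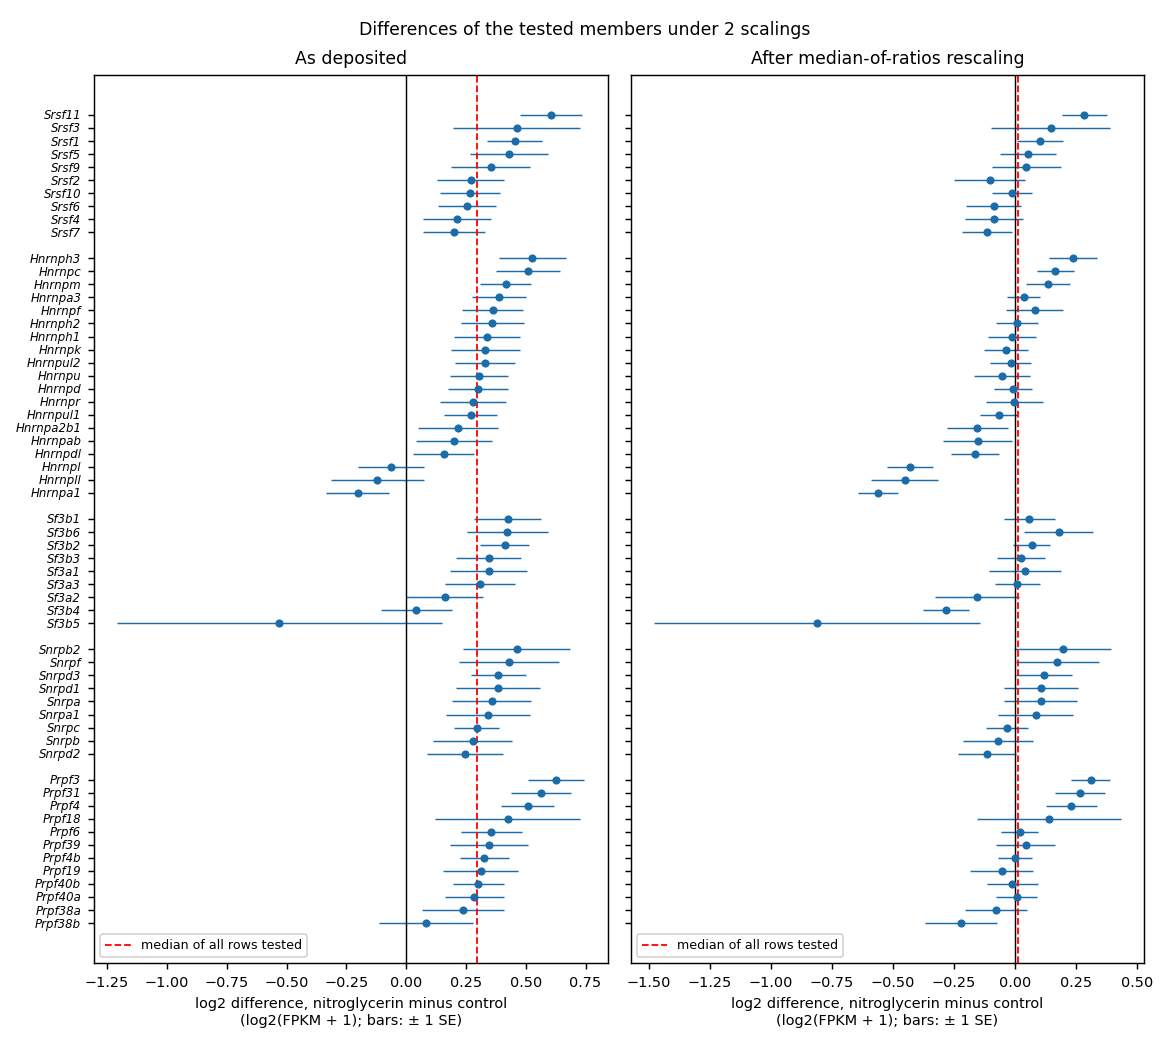
Log2 difference of nitroglycerin minus control (log2(FPKM + 1), bars ± 1 SE from limma, n = 4 per group) of the 59 tested genes, as deposited (left) and after rescaling (right); the dashed line is the median of all 12977 rows. Most genes lie near the dashed line, with Hnrnpa1, Hnrnpl, Hnrnpll, Sf3b4 and Sf3b5 to its left and Prpf3, Prpf31, Prpf4 and Srsf11 to its right.

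Of the 9 SF3 genes, 8 had a log2 difference above 0 as deposited (median 0.34) and 6 after rescaling (median 0.02). None passed (limma; 4 higher and 0 lower at an unadjusted p under 0.05 as deposited, 0 and 1 after rescaling). Sf3b1, the scaffold that clasps the branch point, read 11.7, 15.3, 13.1 and 16.6 FPKM in the controls and 18.4, 19.7, 17.7 and 21.0 FPKM in the nitroglycerin libraries. For Sf3b1 the log2 difference as deposited came to 0.42 (limma adjusted p = 0.0837, SE 0.14), against 0.06 (limma adjusted p = 0.868, SE 0.10) when rescaled. Sf3b2, which contacts the intron beside it, read 6.02, 6.95, 6.37 and 6.43 FPKM in the controls and 9.08, 8.17, 8.91 and 9.48 FPKM in the nitroglycerin libraries. Both genes had no overlap between groups as deposited. Sf3b2 had a deposited log2 difference of 0.41 (limma adjusted p = 0.0615, SE 0.10) and a rescaled one of 0.07 (limma adjusted p = 0.760, SE 0.07). Sf3b5, the smallest SF3b subunit, read 6.36, 8.18, 6.78 and 6.499 FPKM in the controls and 8.54, 8.58, 8.92 and 0 FPKM in the nitroglycerin libraries. The value of 0 in nitroglycerin replicate 4 can be a failed estimate, and without that library the difference was 0.29 as deposited (adjusted p = 0.195) and -0.03 after rescaling. With it the difference was -0.53 (limma adjusted p = 0.575, SE 0.68) as deposited and -0.81 (limma adjusted p = 0.673, SE 0.67) after rescaling. Sf3b4, an RNA-binding subunit named after its values were seen, stood at 5.54 ± 1.15 and 5.66 ± 0.314 FPKM, a difference of 0.04 (limma adjusted p = 0.840, SE 0.15) as deposited and -0.28 (limma adjusted p = 0.290, SE 0.09) after rescaling, where every nitroglycerin library lay below every control.

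All 9 tested Snrp genes had a log2 difference above 0 as deposited (median 0.36), and 6 after rescaling (median 0.11). None passed (limma; 2 higher and 0 lower at an unadjusted p under 0.05 as deposited, 0 and 0 after rescaling). Snrpc, the U1 protein that helps to recognise the start of an intron, read 4.63, 5.05, 4.42 and 4.60 FPKM in the controls and 5.95, 5.82, 5.98 and 6.10 FPKM in the nitroglycerin libraries. Its libraries were close within each group, and the groups did not overlap. On the log2 scale Snrpc differed by 0.29 (limma adjusted p = 0.0786, SE 0.09), and by -0.03 (limma adjusted p = 0.924, SE 0.09) once rescaled. Snrpd3, a protein of the Sm ring, read 1.79, 1.84, 1.95 and 1.497 FPKM in the controls and 2.44, 2.60, 3.14 and 2.33 FPKM in the nitroglycerin libraries, also without overlap. For Snrpd3 the log2 difference as deposited came to 0.39 (limma adjusted p = 0.0709, SE 0.11), against 0.12 (limma adjusted p = 0.724, SE 0.11) when rescaled. Snrpd2, another Sm ring protein and the Snrp gene of highest level, stood at 12.0 ± 2.50 and 14.3 ± 1.22 FPKM, a difference of 0.25 (limma adjusted p = 0.273, SE 0.16). Snrpb, which encodes the Sm proteins B and B', stood at 7.53 ± 1.27 and 9.36 ± 1.86 FPKM, a difference of 0.28 (limma adjusted p = 0.247, SE 0.17). Snrpb2, the U2 snRNP protein that sits with Snrpa1, had the highest difference of the family, 0.46 (limma adjusted p = 0.171, SE 0.22), but overlapped between groups at 1.24, 2.30, 1.33 and 2.92 FPKM in the controls and 3.09, 2.26, 2.43 and 4.32 FPKM in the nitroglycerin libraries. After rescaling the differences of Snrpd2, Snrpb and Snrpb2 were -0.11, -0.07 and 0.20.

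Of the 12 Prpf genes, all had a log2 difference above 0 as deposited (median 0.34), and 8 after rescaling (median 0.01). Nitroglycerin libraries lay wholly above controls for 7 of the 12 as deposited, against 24.2% of all rows, and for 2 of the 12 after rescaling, against 3.78%. Prpf3, which binds the U4/U6 duplex, read 2.72, 3.84, 3.53 and 3.86 FPKM in the controls and 5.80, 5.97, 5.46 and 6.33 FPKM in the nitroglycerin libraries. Every nitroglycerin library was above every control under both scalings. Prpf3 had a deposited log2 difference of 0.63 (limma adjusted p = 0.0492, SE 0.12) and a rescaled one of 0.31 (limma adjusted p = 0.198, SE 0.08). The call as deposited was lost when any 1 of the 8 libraries was left out, with differences of 0.54 to 0.67 and adjusted p-values of 0.0515 to 0.136. Prpf4, the partner that forms a complex with Prpf3, read 1.79, 1.79, 1.72 and 2.15 FPKM in the controls and 2.93, 2.92, 3.67 and 2.79 FPKM in the nitroglycerin libraries. On the log2 scale Prpf4 differed by 0.51 (limma adjusted p = 0.0558, SE 0.11), and by 0.23 (limma adjusted p = 0.445, SE 0.11) once rescaled. Prpf31, which bridges the U4 particle to the tri-snRNP and is named after its values were seen, read 2.33, 2.70, 3.02 and 2.13 FPKM in the controls and 4.11, 3.56, 4.36 and 4.95 FPKM in the nitroglycerin libraries. For Prpf31 the log2 difference as deposited came to 0.57 (limma adjusted p = 0.0573, SE 0.13), against 0.27 (limma adjusted p = 0.358, SE 0.10) when rescaled. Prpf6, which links the tri-snRNP particles, stood at 5.70 ± 0.786 and 7.55 ± 0.761 FPKM, a difference of 0.36 (limma adjusted p = 0.0945, SE 0.13) as deposited and 0.02 (limma adjusted p = 0.949, SE 0.08) after rescaling. Prpf19, the ubiquitin ligase of the activating complex and the Prpf gene of highest level, stood at 14.8 ± 1.98 and 18.7 ± 2.97 FPKM, with 0.31 (limma adjusted p = 0.179, SE 0.16) and -0.05 (limma adjusted p = 0.906, SE 0.13). Prpf38b, related to a factor of spliceosome activation, had the lowest difference, 0.08 (limma adjusted p = 0.765, SE 0.20) as deposited and -0.22 (limma adjusted p = 0.594, SE 0.15) after rescaling, at 3.90 ± 1.03 and 4.18 ± 1.06 FPKM. Besides Prpf3, no Prpf gene passed (limma; 7 higher and 0 lower at an unadjusted p under 0.05 as deposited, 2 and 0 after rescaling, Prpf3 among each).

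The bases before the annotated start are shown for Prpf3, the called gene, and for Hnrnpa1, Hnrnpa3 and Hnrnpl, which parted in their values. They are from RefSeq (GRCr8, a later build than the Rnor_6.0 named by the submitters), read 5′ to 3′ and end at the base before the start. Capitals mark matches on either strand to CCAAT (the CCAAT box), to GGGCGG (the core of the GC box) or to CACGTG (the E-box), of which GGGCGG can overlap itself.
Prpf3 (GRCr8, chr2:186092428-186092577, minus strand): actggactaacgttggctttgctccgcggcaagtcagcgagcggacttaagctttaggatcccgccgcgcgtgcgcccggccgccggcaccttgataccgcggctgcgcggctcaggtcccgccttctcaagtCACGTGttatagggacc
Hnrnpa1 (GRCr8, chr7:136253968-136254117, plus strand): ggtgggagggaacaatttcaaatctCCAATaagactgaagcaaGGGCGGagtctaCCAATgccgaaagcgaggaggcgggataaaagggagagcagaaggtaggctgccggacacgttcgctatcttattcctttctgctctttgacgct
Hnrnpa3 (GRCr8, chr3:80985784-80985933, plus strand): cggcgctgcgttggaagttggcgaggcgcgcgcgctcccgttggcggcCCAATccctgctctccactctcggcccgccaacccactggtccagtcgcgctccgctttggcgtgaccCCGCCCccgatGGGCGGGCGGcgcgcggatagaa
Hnrnpl (GRCr8, chr1:93228251-93228400, plus strand): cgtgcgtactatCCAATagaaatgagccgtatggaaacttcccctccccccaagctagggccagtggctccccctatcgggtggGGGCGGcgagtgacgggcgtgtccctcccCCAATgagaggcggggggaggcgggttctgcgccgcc
Of these windows, those of Hnrnpa1, Hnrnpa3 and Hnrnpl held CCAAT and GGGCGG, and that of Prpf3 held CACGTG. Of the 63 genes, 58 had a promoter in the table, 56 of them tested. In the 250 bases before the start, CCAAT was found in 27 of 56 (48.2%) against 34.0% of all 33360 promoters, GGGCGG in 31 (55.4%) against 30.5%, the ETS-type element CCGGAAGT in 7 (12.5%) against 3.11%, CACGTG in 7 (12.5%) against 5.61%, TATAAA in 5 (8.93%) against 12.9%, and the palindromic NRF1 element in 2 (3.57%) against 0.764%. The median number of CG dinucleotides in that window was 18.5 for the 56 genes and 5 for all promoters, and the median GC content 58 and 51.6%. The 56 genes were tested ones with 1 promoter each, while the 33360 promoters were limited neither to tested genes nor to 1 per gene. How far this shapes the percentages was not tested. A match describes letters in the window and is not a binding site.

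Other genes of splicing, in 6 lists with 133 entries, were read from the same fit. Of the 115 tested, none passed under either scaling (limma; 62 higher and 0 lower at an unadjusted p under 0.05 as deposited, 5 and 3 after rescaling). Those unadjusted counts stand beside 34.1 and 1.02% of all rows as deposited and 5.50 and 6.44% after rescaling. The 115 had a median of 0.36 on the deposited scale and 0.04 on the rescaled one. The 32 spliceosome helicases and core proteins had a median of 0.40, and of 0.11 after rescaling. Their nitroglycerin libraries lay wholly above controls for 22 of 32 as deposited, against 24.2% of all rows, and for 4 of 32 after rescaling, against 3.78%. Ddx23, a helicase of the exchange of U1 for U6 at the start of the intron, stood at 5.76 ± 0.616 and 9.06 ± 0.790 FPKM, a difference of 0.57 (limma adjusted p = 0.0516, SE 0.12) and 0.23 (limma adjusted p = 0.284, SE 0.08) after rescaling. Isy1, a core protein of the activated spliceosome, stood at 2.46 ± 0.274 and 3.61 ± 0.213 FPKM, a difference of 0.42 (limma adjusted p = 0.0592) as deposited and 0.13 (limma adjusted p = 0.535) once rescaled. The 29 SR-related, U2AF and snRNP factors had a median of 0.34 as deposited and 0.0054 after rescaling. The U5 helicase Snrnp200 stood at 9.90 ± 1.21 and 14.6 ± 0.847 FPKM, a difference of 0.52 (limma adjusted p = 0.0585) as deposited and 0.16 (limma adjusted p = 0.372) once rescaled. Acin1, a nuclear protein deposited on spliced RNA, stood at 8.94 ± 0.909 and 13.0 ± 1.26 FPKM, a difference of 0.49 (limma adjusted p = 0.0615) as deposited and 0.14 (limma adjusted p = 0.557) once rescaled. The 23 tissue and smooth muscle regulators had a median of 0.34 as deposited, with 21 of 23 above 0, and of -0.0021 after rescaling, with 11 of 23 above 0. The lowest p among them as deposited belonged to Taf15, an RNA-binding protein, at 4.63 ± 0.406 and 7.67 ± 1.05 FPKM, a difference of 0.62 (limma adjusted p = 0.0503) as deposited and 0.28 (limma adjusted p = 0.274) once rescaled. Next was Tial1, a regulator that binds uridine-rich RNA, at 7.94 ± 0.956 and 12.1 ± 1.72 FPKM, a difference of 0.54 (limma adjusted p = 0.0615) as deposited and 0.19 (limma adjusted p = 0.451) once rescaled.

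The 6 tested kinases of SR proteins had a median of 0.31 as deposited, with 5 of 6 above 0, and of -0.018 after rescaling, with 2 of 6 above 0. Clk3 stood at 4.23 ± 0.447 and 5.70 ± 0.669 FPKM, a difference of 0.36 (limma adjusted p = 0.0848) as deposited and 0.03 (limma adjusted p = 0.900) once rescaled. Srpk1 stood at 4.80 ± 1.16 and 6.28 ± 0.305 FPKM, a difference of 0.35 (limma adjusted p = 0.128) as deposited and 0.02 (limma adjusted p = 0.967) once rescaled. The 17 tested genes of the exon junction complex and nonsense-mediated decay, the process that degrades messages with early stop codons, had a median of 0.27 as deposited, with all 17 above 0, and of 0.0099 after rescaling, with 9 of 17 above 0. Magoh, a core protein of the exon junction complex, stood at 5.55 ± 0.773 and 8.25 ± 0.354 FPKM, a difference of 0.50 (limma adjusted p = 0.0589) as deposited and 0.17 (limma adjusted p = 0.427) once rescaled. Its partner Rbm8a stood at 2.11 ± 0.275 and 3.31 ± 0.401 FPKM, a difference of 0.47 (limma adjusted p = 0.0595) as deposited and 0.19 (limma adjusted p = 0.558) once rescaled. The 8 tested LSm genes, which encode relatives of the Sm proteins that act in nuclear and cytoplasmic rings, had a median of 0.32 as deposited and 0.03 after rescaling. Lsm8, the subunit that marks the nuclear ring, read 1.10, 1.96, 1.39 and 1.55 FPKM in the controls and 2.18, 5.10, 4.79 and 5.64 FPKM in the nitroglycerin libraries. Its groups did not overlap as deposited and overlapped after rescaling. Lsm8 had a deposited log2 difference of 1.07 (limma adjusted p = 0.0558, SE 0.23) and a rescaled one of 0.81 (limma adjusted p = 0.210, SE 0.22). Without nitroglycerin replicate 1, which held its lowest nitroglycerin value, it passed under both scalings (limma adjusted p = 0.0278 and 0.0332). With 1 other library left out, its limma adjusted p reached 0.138 as deposited and 0.403 after rescaling. Lsm3 stood at 2.91 ± 0.392 and 4.02 ± 0.638 FPKM, a difference of 0.36 (limma adjusted p = 0.0973) as deposited and 0.06 (limma adjusted p = 0.876) once rescaled. The medians of all rows, beside which these list medians stand, were 0.30 and 0.01.

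Ratios of 2 genes within a library do not depend on how libraries are scaled. Between the 58 tested genes above 0 in every library there were 1653 such ratios, and 162 of them (9.80%) had groups that did not overlap. Each gene took part in 57 ratios, a median of 4 of which did not overlap. Hnrnpa1 had the most, 45 that were lower in every nitroglycerin library than in every control and 0 that were higher. Hnrnpl followed with 31 lower and 0 higher, then Prpf3 with 0 lower and 23 higher, and Hnrnpll and Sf3b4 with 17 and 16 lower and 0 and 1 higher. Ratios that share a gene are not independent, and this count was chosen after values were seen, so it is a description. Ratios of genes outside the set were not formed, so no share over all rows stands beside these counts.

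Among 15 pairs of related genes, also chosen after values were seen, 1 did not overlap between groups. The ratio of Hnrnpa1 to its paralog Hnrnpa3, whose row read 7.02, 9.02, 8.71 and 8.35 FPKM in the controls and 11.04, 10.6, 11.3 and 11.5 FPKM in the nitroglycerin libraries, was 1.54, 1.61, 1.68 and 1.60 in the controls and 1.06, 0.984, 1.11 and 0.954 in the nitroglycerin libraries. The log2 ratio differed by -0.65 (exact permutation test, two-sided, p = 0.0286, which no split of 8 libraries into 4 and 4 can go below; Benjamini-Hochberg over 15 pairs, 0.429), and by -0.69 to -0.61 with any 1 library left out. With both annotated Hnrnpa3 rows summed the ratio was 1.25 ± 0.0655 and 0.809 ± 0.0456. Against Hnrnpa2b1 the Hnrnpa1 ratio was 0.658, 0.572, 0.723 and 0.722 in the controls and 0.623, 0.421, 0.490 and 0.445 in the nitroglycerin libraries, where 1 nitroglycerin library lay within the controls (log2 difference -0.45, exact permutation p = 0.0571, adjusted 0.429). Hnrnpl to Hnrnpll had a ratio of 2.62 ± 0.494 and 2.71 ± 0.147, and Prpf3 to Prpf4 one of 1.88 ± 0.282 and 1.95 ± 0.330. The log2 differences of the remaining pairs lay between -0.20 and 0.31, with exact permutation p-values of 0.0857 to 0.971.

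**Figure D4:**
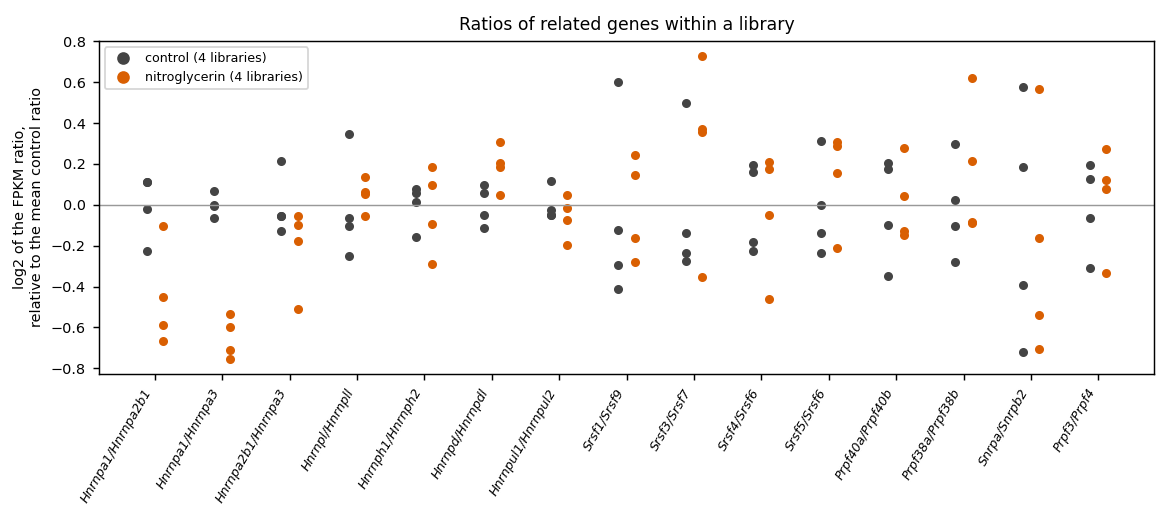
Log2 of the FPKM ratio of 15 pairs of related genes in each library, set to 0 at the mean control ratio, for 4 control (grey) and 4 nitroglycerin (orange) libraries. The Hnrnpa1/Hnrnpa3 ratio is the pair whose groups do not overlap, with all orange points below the grey ones.

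Besides the rows described so far, 16 rows carried the symbol of a member, 15 of them assembled loci with no annotated transcript. The locus under Hnrnpul2, a relative of the scaffold hnRNP U, had the highest level of the assembled loci, at 6.92, 9.74, 10.1 and 9.74 FPKM in controls and 13.9, 12.0, 13.4 and 13.6 FPKM with nitroglycerin. Its groups did not overlap (log2 difference 0.50, limma adjusted p = 0.0664), and after rescaling the difference was 0.15 (adjusted p = 0.510). The annotated Hnrnpul2 row stood at 7.44 ± 0.600 and 9.65 ± 1.31 FPKM. Of the 15 assembled loci, 12 were listed at 0 in at least 1 library, which can be a failed estimate. Among predicted lncRNAs, 7 single-exon transcripts carried the symbol of a member, 6 within an intron and 1 antisense. All 7 are also among the 15 assembled loci, with the same values, and are no separate readout. As lncRNAs, 5 were tested. None passed (limma on log2(FPKM + 0.1), adjusted p = 0.888 to 0.977; 0 at an unadjusted p under 0.05), where 0.0418% of 2390 transcripts did. The only one of these above 0 in every library, MSTRG.12323.1 in an intron of Hnrnph3 (chromosome 20, 27169927 to 27172617, plus strand, Rnor_6.0 per the submitters' processing notes), read 1.54, 2.46, 2.49 and 2.68 FPKM in controls and 3.11, 2.94, 0.712 and 4.30 FPKM with nitroglycerin, so nitroglycerin replicate 3 was low where the Hnrnph3 row was not.

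Some members have near-identical copies between which reads can be split, so their levels are uncertain. The annotated Snrpg row was under 1 FPKM in every library, while LOC687679, described as similar to that Sm protein, stood at 13.2 ± 4.31 and 18.1 ± 1.23 FPKM. LOC103689931, described as hnRNP A/B, stood at 8.09 ± 1.305 and 7.97 ± 0.794 FPKM, beside 9.23 ± 1.59 and 10.7 ± 1.86 FPKM for Hnrnpab. LOC100359916, described as hnRNP K-like, stood at 2.02 ± 0.410 and 2.48 ± 0.358 FPKM, and LOC102551606, described as hnRNP R-like, at 0.814 ± 0.179 and 0.857 ± 0.583 FPKM. Hnrnpa1 and the Sm genes are known for many processed pseudogenes in mammals, and how reads that fit several places were assigned is not given in the sources used here.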

How the data were processed

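Ribosomal-RNA-depleted total RNA of 4 control and 4 nitroglycerin libraries was sequenced. The deposited gene and lncRNA tables hold FPKM per library, per the file headers, beside read coverage (signal) and coding-potential scores for lncRNAs, which were deposited too and not used for tests. HISAT2 2.0, StringTie 1.3.0 and Bowtie 0.12.2, and the builds Rnor_6.0 and mm8, are named per the submitters' processing notes, with no role given. Counts were not analysed here, so depth is known only as aligned sequence, and FPKM falls for all genes when a few take more of a library.

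Rows that reached 1 FPKM in 4 or more libraries were fitted as log2(FPKM + 1) with limma 3.58.1 (R 4.3.3, eBayes with trend), with Benjamini-Hochberg adjustment over all 12977 rows and a threshold of 0.05. A log2 difference on this scale understates changes of low genes. The same fit was run after division by median-of-ratios factors. lncRNAs were fitted as log2(FPKM + 0.1). Ratios were compared by exact permutation over 70 splits. Scripts were tested on simulated data with 200 of 12977 rows changed. There the fit recovered 1% of log2 changes of 0.5 and 46% of changes of 1, with 4 false calls among 51. The simulated rows varied independently around deposited levels, without the shift that most rows share here. These rates therefore do not carry over to the real rows or to the rescaled fit. A gene that did not pass may still differ. Promoters are from RefSeq (GRCr8), 58 of 63 symbols matched. Figures and descriptions used Python 3.11.15.

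Named genes were, per family, called members, the 2 of highest mean FPKM, the 2 of lowest p and the highest and lowest log2 difference, and per other list the 2 of lowest p. Genes outside this rule are said to be chosen after their values were seen, as are Srsf3, Hnrnpul2 and the near-identical copies. Members, lists and tests were chosen with earlier results of these data known. Marker lists not described in the results summed to 21.9 to 32.1 and 14.4 to 21.7 FPKM (skeletal muscle, controls and nitroglycerin), 0.781 to 1.20 and 0.880 to 1.37 (lymphocyte), 2.52 to 3.44 and 2.67 to 4.76 (Schwann cell and nerve), and 0.645 to 143.6 and 43.4 to 191 FPKM (mitochondrial messenger RNA); none of 4 nuclear-retained RNAs had a row. Alternatives changed the pseudocount, filter, rows, weights, scaling, block and libraries. Protein sequences were not used here.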

Additional observations from a re-analysis of the deposited data

Results flagged for a closer look

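In 12 of 148 groups of 4 values examined (8.11%), 1 library lay far from the other 3, measured as its gap over the range of the group. Chance gives about 1 in 20 for independent groups, whereas these groups share libraries. FPKM were screened as deposited, where the scale of a library also moves its values. The screen was not repeated after rescaling. The lowest was Sf3b5 in nitroglycerin replicate 4, listed at 0 FPKM beside 8.54 to 8.92 FPKM in the other libraries of its group. Srsf3 was also low in that library, at 3.64 FPKM beside 6.89 to 7.52 FPKM. Hnrnpa2b1 was low in nitroglycerin replicate 1, at 18.8 FPKM beside 24.6 to 25.6 FPKM. In nitroglycerin replicate 3 the high values were Hnrnpdl at 5.39 FPKM beside 4.995 to 5.02, Prpf4 at 3.67 FPKM beside 2.79 to 2.93, and Sf3a2 at 5.99 FPKM beside 4.07 to 4.34. In control replicate 1 the U2 subunits Sf3a3 and Sf3b3 were low, at 2.17 FPKM beside 3.35 to 3.47 and at 3.17 FPKM beside 4.44 to 4.66. Hnrnpdl was high in control replicate 2, at 5.90 FPKM beside 3.98 to 4.18, and Prpf4 in control replicate 4, at 2.15 FPKM beside 1.72 to 1.79. After rescaling, Prpf4 in control replicate 4 (2.37 FPKM) lay below control replicate 1 (2.41 FPKM). Hnrnpdl in nitroglycerin replicate 3 (4.54 FPKM) then lay below nitroglycerin replicate 2 (4.69 FPKM). Sf3b3 in control replicate 1 then read 4.27 FPKM beside 4.46 to 5.13, and Sf3a3 2.92 FPKM beside 3.48 to 3.76. The other flagged FPKM values stayed the lowest or highest of their group. Of the ratios, Srsf3/Srsf7 was high in control replicate 2, at 1.47 beside 0.861 to 0.947, and Hnrnpul1/Hnrnpul2 in control replicate 4, at 0.865 beside 0.770 to 0.784.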

How the results depend on the processing

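The count of 1 called gene was 0 with a pseudocount of 0.1 or 0.5, with no filter on low values, after quantile normalization or rescaling, and without any 1 of the 8 libraries (0 to 0). With a mean of at least 5 FPKM the count was 2 (Sf3b2 and Srsf1), and Prpf3, at a mean of 4.69 FPKM, was not tested. With annotated rows only it was 8 (Prpf3, Srsf11, Prpf4, Hnrnpm, Sf3b2, Srsf1, Prpf31 and Hnrnpc). With array weights it was 13, these 8 and Snrpc, Snrpd3, Hnrnph3, Hnrnpa3 and Prpf4b. All of these were higher with nitroglycerin. After rescaling the count of 0 was 1 (Hnrnpa1, lower) with no filter, a mean of at least 5 FPKM or annotated rows only. Over all rows, 175 calls became 7 and 55 with pseudocounts of 0.1 and 0.5, 26 with no filter, 828 with annotated rows, 1936 with array weights, 15 after quantile normalization, 17 after rescaling, and 3 to 209 without 1 library. The 17 after rescaling became 31 with a mean of at least 5 FPKM and 0 to 32 without 1 library. The 22 genes whose nitroglycerin values lay wholly above controls became 4 after quantile normalization and 3 after rescaling (22 to 33 without 1 library), the 0 wholly below became 3 and 3 (0 to 1), and the median of 0.33 became 0.037 and 0.0082 (0.26 to 0.36). After rescaling, 3 to 5 genes lay wholly above without 1 library. The cause was not tested.

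Quantile normalization turned the log2 difference of Srsf7 (-0.11), Hnrnpa2b1 (-0.042), Snrpd2 (-0.044), Snrpb (-0.0066), Snrpc (-0.00896) and Prpf38b (-0.22). Rescaling turned Srsf2 (-0.10), Srsf7 (-0.11), Hnrnpa2b1 (-0.15), Hnrnpk (-0.038), Snrpd2 (-0.11), Snrpb (-0.068), Snrpc (-0.032), Prpf19 (-0.055) and Prpf38b (-0.22). Against the rescaled values, quantile normalization turned Srsf2 (0.0085), Hnrnpk (0.060) and Prpf19 (0.0195). Without 1 library, Prpf38b ranged from -0.076 to 0.18 and Sf3b5 from -0.81 to 0.29. After rescaling, ranges across 0 were -0.068 to 0.035 for Snrpc, -0.073 to 0.10 for Srpk1, -0.017 to 0.10 for Lsm3, -0.077 to 0.013 for Hnrnpk, -0.14 to 0.019 for Prpf19, -0.0097 to 0.062 for Prpf6, -0.15 to 0.023 for Srsf2 and -0.16 to 0.036 for Snrpb. Taf15 passed without nitroglycerin replicate 2 (limma adjusted p = 0.0464), and with another library left out its limma adjusted p reached 0.138.

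Same-numbered control and nitroglycerin libraries correlated at 0.133, -0.011, -0.012 and 0.121 in their deviations from group means, and not every library correlated best with its own number, so the numbers were not taken to pair the libraries. With the replicate number as a block, 0 genes of the set and 0 rows were called, and 0 rows after rescaling. Without read counts, the precision of low values is unknown.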
